A study of Mus musculus with 6 samples.

Results

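The CXC and CX3C chemokines are small secreted or membrane-tethered proteins that guide leukocytes, and 10 of their genes were followed here in cultured mouse astrocytes: Cxcl1, Cxcl2, Cxcl5, Cxcl9, Cxcl10, Cxcl11, Cxcl12, Cxcl13, Cxcl16 and Cx3cl1. They were chosen by name and with earlier results of these data known, so counts over them are not a neutral sample of the family. All 10 were among the 19926 genes with a probe set (a group of array probes summarised into 1 value) carrying only 1 gene symbol. For the 999 genes with more than 1 such probe set, the one of highest mean was read. Astrocytes are the support cells of the brain that regulate transmitters, ions and energy supply around neurons. Primary astrocytes of C57BL/6J mice were given tumour necrosis factor (TNF) at 50 ng/mL for 24 h (3 samples), and control cultures carry the same time of 24 h (3 samples). RNA of each sample was hybridised to 1 Affymetrix Mouse Gene 1.0 ST array. The labels name no genetic change and no vehicle, and they do not say whether replicates came from separate cultures or animals. The p-values therefore cover the spread among these 6 samples, which may be technical.

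CXC chemokines are named for a pair of cysteines parted by another residue, and CX3C for a pair parted by a longer stretch. Receptors on leukocytes read the ligands: Cxcr2 on neutrophils binds Cxcl1, Cxcl2 and Cxcl5, Cxcr3 on activated T and NK cells binds Cxcl9, Cxcl10 and Cxcl11, Cxcr4 and Ackr3 bind Cxcl12, Cxcr5 on B cells binds Cxcl13, Cxcr6 binds Cxcl16, and Cx3cr1 on microglia binds Cx3cl1. TNF acts through NF-kB, a transcription factor that opens many chemokine genes, and interferons act through IRF factors among others on the Cxcr3 ligands. Astrocytes are a known source of several of these ligands in inflamed brain.

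Promoters of 7 of the 10 genes were found in the RefSeq table used (build GRCm38.p6). The 4 below are shown because each holds a match to an NF-kB type motif and because they come from both chemokine clusters of chromosome 5. Each line gives the 250 bases before the annotated start, 5′ to 3′ on the strand of the gene, at chr5:90890995-90891244 (+ strand) for Cxcl1, chr5:90903649-90903898 (+) for Cxcl2, chr5:92328080-92328329 (− strand) for Cxcl9 and chr5:92348890-92349139 (−) for Cxcl10. Capitals mark every match to a motif searched.
Cxcl1: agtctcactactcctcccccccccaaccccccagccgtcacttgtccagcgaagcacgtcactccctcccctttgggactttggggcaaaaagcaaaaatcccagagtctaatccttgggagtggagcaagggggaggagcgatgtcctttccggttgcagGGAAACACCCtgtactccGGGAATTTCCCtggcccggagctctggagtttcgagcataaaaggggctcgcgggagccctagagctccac
Cxcl2: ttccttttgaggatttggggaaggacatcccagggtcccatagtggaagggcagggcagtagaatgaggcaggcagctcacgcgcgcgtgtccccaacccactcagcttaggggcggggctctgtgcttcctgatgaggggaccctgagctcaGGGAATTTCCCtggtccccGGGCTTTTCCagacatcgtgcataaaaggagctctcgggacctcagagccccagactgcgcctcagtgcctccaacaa
Cxcl9: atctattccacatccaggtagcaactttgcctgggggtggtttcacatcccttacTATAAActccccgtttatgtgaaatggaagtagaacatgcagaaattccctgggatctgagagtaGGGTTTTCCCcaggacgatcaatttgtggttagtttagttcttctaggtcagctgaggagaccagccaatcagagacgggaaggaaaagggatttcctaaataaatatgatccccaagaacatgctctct
Cxcl10: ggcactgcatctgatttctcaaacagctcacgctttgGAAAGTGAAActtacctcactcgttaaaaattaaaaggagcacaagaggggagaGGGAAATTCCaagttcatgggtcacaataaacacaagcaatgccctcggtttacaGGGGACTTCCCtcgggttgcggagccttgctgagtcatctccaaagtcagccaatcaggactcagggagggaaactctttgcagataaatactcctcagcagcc

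The motifs were searched on both strands from 250 bases before to 50 bases after the start. The NF-kB type motif was GGG, any pair of bases, TT, any base and CC, and the interferon response (ISRE) type was GAAA, any pair of bases and GAAA. The GAS type was TTCNNNGAA, where N is any base, and the TATA box TATAAA. The NF-kB type motif matched in 4 of the 7 promoters, against 4.79% of all 32851 promoters of the table. Cxcl1 and Cxcl2 carry the same match, GGGAATTTCC, beginning 71 bases before the start in Cxcl1 and 97 bases in Cxcl2. Cxcl1 has a second match on the other strand at 89 bases, and Cxcl2 a second one, GGGCTTTTCC, at 78 bases. Cxcl9 holds GGGTTTTCCC at 130 bases, and Cxcl10 holds GGGACTTCCC at 103 bases. Cxcl10 was the only one of the 7 with an ISRE type match, GAAAGTGAAA at 213 bases, and 3.44% of all promoters hold this motif. A wide kB consensus was added after the sequences had been seen. It reads GGG, A or G, any pair of bases, a pair each C or T, and CC. Under it Cxcl10 gained a second place, GGGAAATTCC at 159 bases. That consensus does not cover every NF-kB type match and misses the one in Cxcl9. It overlaps NF-kB type matches in Cxcl1, Cxcl2 and Cxcl10, the only promoters of the 7 that held it, against 8.46% of all promoters. The GAS type matched in 0 of the 7, against 8.30% of all. TATAAA was found in Cxcl9, Cxcl13 and Cx3cl1, beginning 195, 46 and 6 bases before the start, against 13.6% of all promoters. It was counted at any place in the window, so a match need not be a working TATA box. Cxcl12 held no match to any of these letters in this window. A match describes letters and was not tested for binding.

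**Figure D1:**
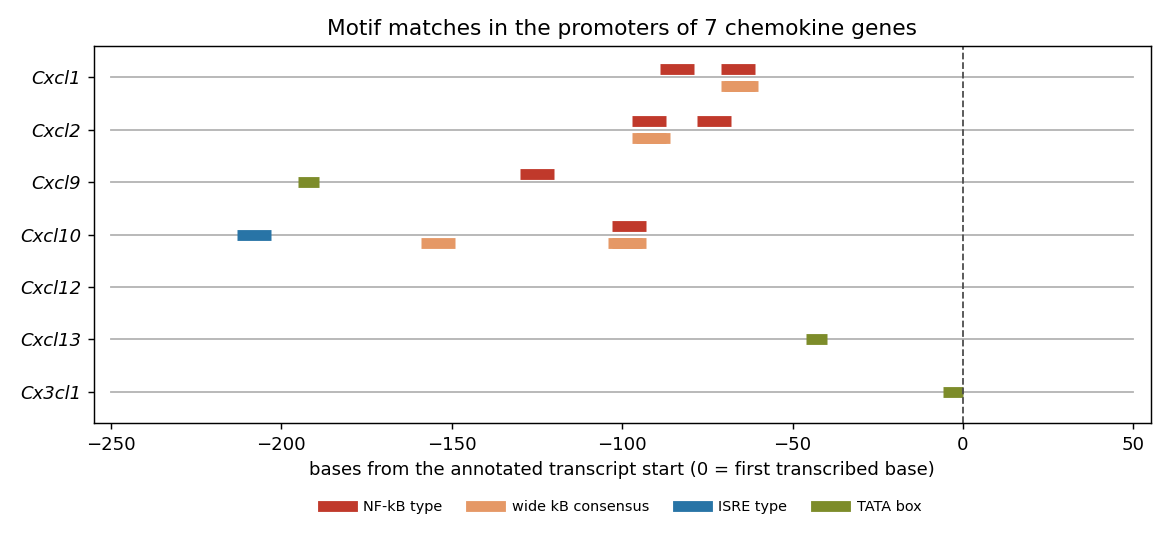
Motif matches in the promoters of 7 chemokine genes, as bars along a line from 250 bases before to 50 bases after the annotated start (dashed line, position in bases). NF-kB type matches lie above the line in Cxcl1, Cxcl2, Cxcl9 and Cxcl10, and Cxcl10 alone also has an ISRE type match.

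All values below are log2 signals as deposited, and a difference is the TNF mean minus the control mean, so a difference of 1 is 2-fold. Differences were tested with limma, which shares information on the spread over all genes, and a gene was called at a two-sided adjusted p under 0.05 (Benjamini-Hochberg over 19926 genes). By this test 3.87% of all genes were higher with TNF and 3.33% lower. Of the 10 chemokine genes, 7 rose and none fell, with a median difference of 2.07 beside -0.003 over all genes. The 6 other CXC ligands measured, which are not among the 10, gave no call. The samples of the same replicate number deviate together, so a second fit carried that number as a block. There 10 of 10 passed as higher, against 9.73% of all genes, while 11.8% of all genes were lower. Counts over the gene lists below stand beside these shares of either fit. In all 10 genes each TNF array lay above each control array, which was true of 12.3% of all genes, and in all 10 the TNF sample was higher in 3 of 3 pairs, as in 25.7% of all genes. Array signals from different probe sets are not on 1 scale, so genes are compared by their differences and not by their levels. The lower quartile of an array is used only to mark dim signals, in which a change can be missed. Because these are bulk cultures, more RNA per cell and more cells that make it cannot be told apart.

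**Figure D2:**
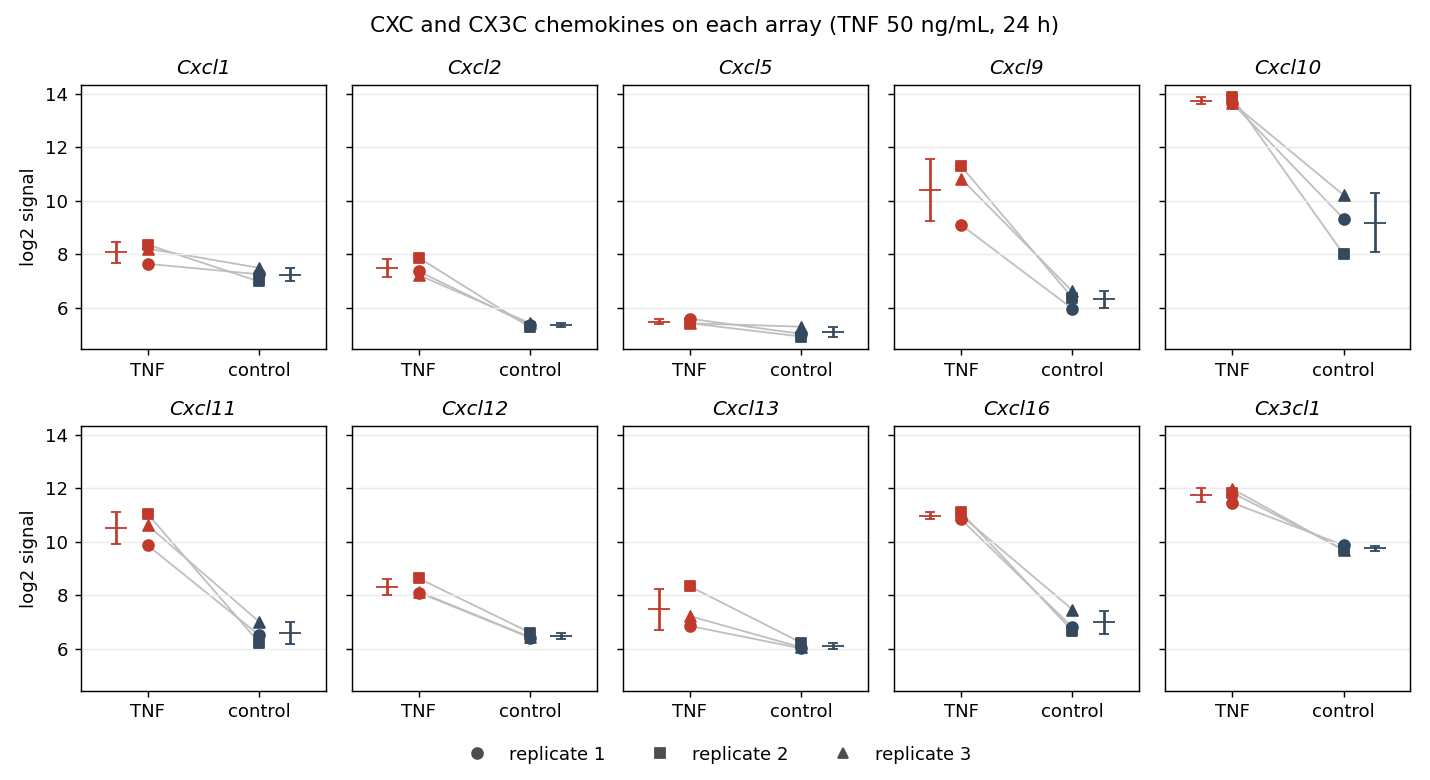
Log2 signal of the 10 chemokine genes on each of 6 arrays, 1 panel per gene, TNF left of control. Symbols are replicate numbers, grey lines join samples of the same number, and side bars show mean ± SD (n = 3). In each panel the TNF points lie above the control points, with the smallest gap in Cxcl5.

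The Cxcr3 ligands, Cxcl9, Cxcl10 and Cxcl11, lie in the same run of genes on chromosome 5, with Art3 between Cxcl9 and Cxcl10. They were among the 4 largest increases of the 10 genes. Cxcl10 (interferon-inducible IP-10), which draws activated T cells, had log2 signals of 13.66, 13.88 and 13.66 in TNF samples 1, 2 and 3, against 9.33, 8.0 and 10.21 in control samples 1, 2 and 3. The TNF samples lay within 1.16-fold of each other, while the controls spread over 4.63-fold, with control 2 lowest. The difference was 4.55 (SE 0.48), or 23.4-fold with a 95% confidence interval from 10.9 to 50.4 (limma adjusted p = 0.00135). Without control 2 the difference was 3.96 (adjusted p = 6.20e-04). The highest value anywhere on the arrays was 14.37, and whether the Cxcl10 signal was saturated with TNF was not tested.

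Cxcl9 (Mig) had log2 signals of 9.10, 11.30 and 10.83 in TNF samples 1 to 3, against 5.96, 6.37 and 6.61 in the controls. The spread was on the TNF side, where sample 1 was 4.59-fold below sample 2. The difference was 4.10 (SE 0.51), or 17.1-fold (interval 7.53 to 38.8, limma adjusted p = 0.00331). Without TNF 1 the difference was 4.75 (adjusted p = 1.46e-04), and without both arrays of replicate 3 the call was lost (adjusted p = 0.0602). Cxcl11 (I-TAC) had 9.88, 11.05 and 10.63 with TNF, against 6.52, 6.24 and 7.02 in controls. It rose 15.2-fold, with a difference of 3.93 (SE 0.31, limma adjusted p = 3.42e-04). The RefSeq table of this strain lists Cxcl11 as a transcribed pseudogene, in contrast to the other 9 genes, which are listed as protein-coding. Its signal is therefore a measure of transcript alone.

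Cxcl16 and Cx3cl1 are made as membrane-bound proteins with a mucin-like stalk, from which proteases release a soluble chemokine. Cxcl16, which also serves as a scavenger receptor, had log2 signals of 10.85, 11.11 and 11 with TNF, against 6.81, 6.67 and 7.47 in controls. The groups were parted by a gap of 3.38 between the lowest TNF array and the highest control. The difference was 4.00 (SE 0.21), or 16-fold (interval 11.4 to 22.4), and its adjusted p of 5.51e-05 (limma) was the smallest of the family. Cx3cl1 (fractalkine), better known from neurons, where it signals to microglia, had 11.47, 11.84 and 11.99 with TNF, against 9.88, 9.72 and 9.69 in controls. It rose 4.01-fold, with a difference of 2.0 (SE 0.15, limma adjusted p = 2.97e-04).

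The neutrophil-attracting ligands differed in how far they moved. Cxcl2 (MIP-2) had log2 signals of 7.36, 7.87 and 7.22 with TNF, against 5.34, 5.26 and 5.42 in controls. Its controls lay below the lower quartile of their arrays, and folds measured from so dim a signal can be understated. It rose 4.41-fold, with a difference of 2.14 (SE 0.17, interval 1.74 to 2.55, limma adjusted p = 3.87e-04). Cxcl1 (KC) had 7.64, 8.36 and 8.21 with TNF, against 7.25, 6.98 and 7.49 in controls. The gap between TNF 1 and control 3 was only 0.15, and the difference of 0.83 (SE 0.21) did not pass (limma adjusted p = 0.0614). With the replicate block Cxcl1 passed as higher (adjusted p = 0.0133), as it did without TNF 1 (adjusted p = 0.0219). Cxcl5 (LIX) stayed dim in both groups, at 5.59, 5.42 and 5.42 with TNF, against 5.02, 4.92 and 5.29 in controls, all below the lower quartile of their arrays. Its difference of 0.40 (SE 0.13) did not pass (limma adjusted p = 0.133) and passed with the block (adjusted p = 0.0329). Cxcl1 and Cxcl2 are close paralogs, and cross-hybridisation between their probe sets was not tested.

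Cxcl12 and Cxcl13 are best known for placing cells in resting tissue. Cxcl12 (SDF-1), which retains stem cells and guides neuronal precursors through Cxcr4, had log2 signals of 8.11, 8.64 and 8.14 with TNF, against 6.42, 6.61 and 6.44 in controls. It rose 3.49-fold, with a difference of 1.80 (SE 0.16, limma adjusted p = 6.44e-04). The increases within the 3 replicate pairs, 1.68, 2.04 and 1.69, were the most even of the 10 genes, with an SD of 0.20. Cxcl13 (BLC), which draws B cells into follicles, had 6.86, 8.34 and 7.23 with TNF, against 6.02, 6.23 and 6.06 in controls. The TNF samples spread over 2.80-fold and the controls over 1.16-fold. Its difference of 1.37 (SE 0.34) did not pass (limma adjusted p = 0.0533), and passed with the block (adjusted p = 0.00403) and without TNF 1 (0.0284) or TNF 2 (0.0248).

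The differences can be ordered by size. Cxcl10, Cxcl9, Cxcl16 and Cxcl11 lay between 3.93 and 4.55, and their confidence intervals overlapped, so their order is not resolved. Cxcl2, Cx3cl1, Cxcl12 and Cxcl13 followed between 1.37 and 2.14, again with overlapping intervals, and the highest upper bound among them was 2.55, below the lowest lower bound of the first 4 genes, 2.91. Cxcl1 at 0.83 and Cxcl5 at 0.40 were the smallest. Their intervals (0.34 to 1.32 and 0.1 to 0.7) overlapped each other and that of Cxcl13 (0.59 to 2.16), so their order is not resolved either. Differences between genes were not tested, and probe sets can compress large folds unequally. Of the 10 genes, 6 rose at least 4-fold, against 0.718% of all genes.

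**Figure D3:**
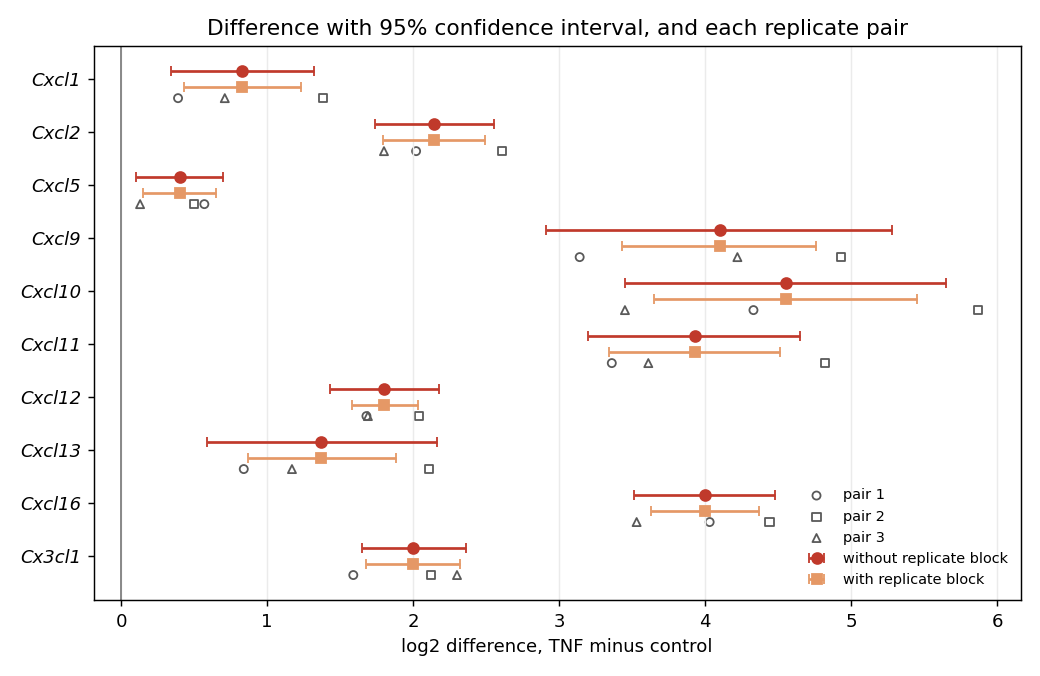
Log2 difference, TNF minus control, for each gene with its 95% confidence interval without (circles) and with (squares) the replicate block. Open symbols are the 3 replicate pairs. Each pair lies above 0 for each gene, and pair 2 lies furthest right in 8 of the 10.

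Replicate pairs differed in the size of the increase. Cxcl10 was higher by 4.33, 5.87 and 3.45 in pairs 1, 2 and 3, which is 10.9-fold to 58.7-fold. Cxcl9 was higher by 3.14, 4.93 and 4.22, and Cxcl11 by 3.36, 4.82 and 3.61. Pair 2 showed the largest difference in 8 of the 10 genes, against 33.7% of all genes and 54.6% of the 771 genes called higher. The exceptions were Cxcl5, largest in pair 1, and Cx3cl1, largest in pair 3. TNF 2 was the highest TNF array in 8 of the 10, against 29.2% of all genes and 52.0% of the 771 genes called higher. In 6 of the 10, control 3 was the highest control and control 2 the lowest, against 22.3% of all genes.

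Microglia make several of these ligands themselves and often remain in astrocyte cultures, and the signal of their markers varied with the replicate number. The mean log2 signal over 17 measured microglia markers was 7.37, 6.47 and 7.76 in TNF samples 1, 2 and 3, against 6.99, 6.36 and 7.67 in the controls. Both arrays of replicate 2 were the lowest in their group, and the chemokine mean was 9.05, 9.78 and 9.43 with TNF, against 6.85, 6.70 and 7.17 in controls. TNF 2 thus had the highest chemokine mean and the lowest microglia mean of the TNF arrays, while controls ranked alike in both. None of the 17 markers passed with limma (median difference 0.12, with 1 higher and 0 lower at an unadjusted p under 0.05). With the block 3 passed as higher, against 9.73% of all genes (Itgam, Cd68 and C1qb, named after their values were seen). Of the 17 markers 1, Aif1, lay below the lower quartile on all 6 arrays, and RMA values hold no zero by which to call a marker absent. The part of microglia in the chemokine signals was not tested. The 12 T cell, NK cell and neutrophil markers averaged 5.65 to 6.12 with TNF, against 5.75 to 6.06 in controls, and 5 of them lay below the lower quartile on all arrays. Their means were also highest on the arrays of replicate 3, where dim signals as a whole were raised (lower quartiles of 6.33 with TNF and 6.27 in the control). A high microglia mean in replicate 3 may therefore not be particular to microglia. The 12 astrocyte markers averaged 10.05 to 10.32 with TNF, against 10.44 to 10.73 in controls. Among them Gjb6 lay below the lower quartile on all 6 arrays, and S100b on 1 TNF array.

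**Figure D4:**
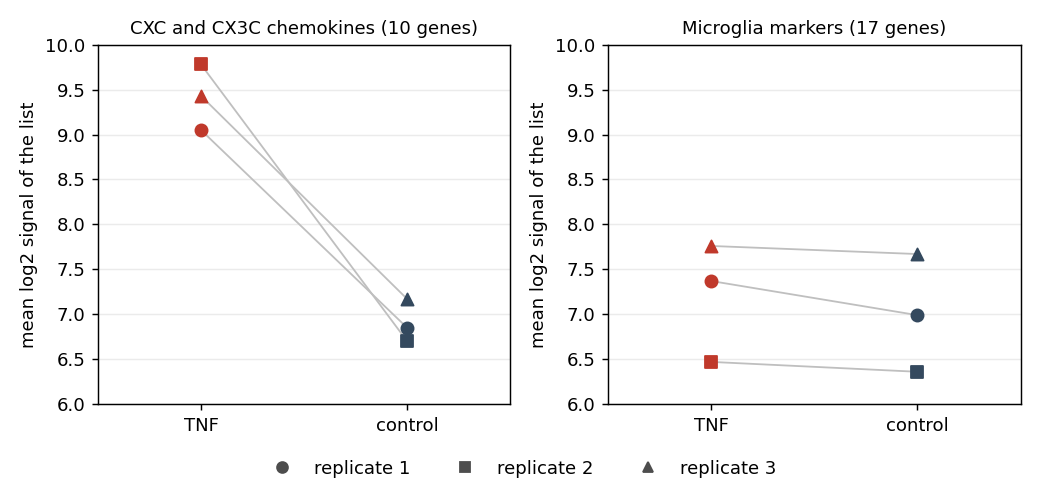
Mean log2 signal per array of the 10 chemokine genes (left) and of 17 microglia markers (right), TNF left of control, with grey lines joining samples of the same replicate number. Replicate 2 (squares) has the highest chemokine mean with TNF and the lowest microglia mean in both groups.

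Receptors for these ligands gave 1 call. Of 10 measured receptor genes 1 fell and none rose, against 3.33% lower and 3.87% higher over all genes, with a median difference of -0.04. With the block 1 was higher and 1 lower, against 9.73% and 11.8% of all genes. Cxcr4, the signalling receptor of Cxcl12, had log2 signals of 8.49, 7.74 and 7.90 with TNF, against 10.50, 9.10 and 9.57 in controls. The groups did not overlap, and Cxcr4 fell by 1.68 (SE 0.35), or 3.21-fold (limma adjusted p = 0.0284). Its call was lost without TNF 2 (adjusted p = 0.0965), TNF 3 (0.0738) or control 3 (0.0686) and with all probe sets in the fit (0.0744), and with the block it passed (1.52e-04). Ackr3, which takes up Cxcl12 and Cxcl11, differed by 0.43 (limma adjusted p = 0.412) and passed as higher with the block (0.0301). Cx3cr1, also a microglia marker, differed by -0.11 with an interval from -0.67 to 0.45, and Cxcr3 by -0.13 with one from -0.61 to 0.34. Cxcr2 at 0.06, Cxcr5 at 0.11 and Cxcr6 at -0.02 did not pass either, and Cxcr2 and Cxcr5 lay below the lower quartile on all 6 arrays.

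The other CXC ligands with a probe set of their own gave no call. The 6 genes Cxcl3, Pf4, Ppbp, Cxcl14, Cxcl15 and Cxcl17 ranged from -0.11 to 0.30, with a median of 0.10. At an unadjusted p under 0.05 limma also gave 0, and with the block there were 0 calls. Cxcl3, Cxcl15, Pf4 and Ppbp lie in the same run of genes on chromosome 5 as Cxcl1, Cxcl2 and Cxcl5. Cxcl3, a close relative of Cxcl2, differed by -0.01 (SE 0.17). Cxcl3, Ppbp and Cxcl15 lay below the lower quartile on all 6 arrays, so a change in them may not be visible here.

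Proteases and inhibitors that act on the ligands rose in 4 of 11 measured genes, with none lower and a median of 0.11. Adam17, the sheddase that also cuts TNF and releases Cx3cl1 and Cxcl16, rose 1.42-fold (difference 0.51, SE 0.11, limma adjusted p = 0.0335), but its call was lost without any 1 of the 6 arrays (adjusted p from 0.0612 to 0.135). Rhbdf2, the iRhom that brings Adam17 to the cell surface, rose 2.76-fold to 8.94 ± 0.07 with TNF, against 7.47 ± 0.16 in controls (SD, n = 3 each, limma adjusted p = 3.94e-04). Timp1, a metalloproteinase inhibitor, rose 5.52-fold to 11.11 ± 0.29 with TNF, against 8.65 ± 0.28 in controls (SD, n = 3 each, limma adjusted p = 3.25e-04). Mmp9, a gelatinase that trims several CXC ligands, rose 1.53-fold (limma adjusted p = 0.036) and lost the call in 5 of the 6 fits without 1 array, all but the one without control 3 (highest adjusted p = 0.138, without control 1). Adam10, the main constitutive sheddase of Cx3cl1, differed by -0.48 (limma adjusted p = 0.0578), and the fit with the block called it lower (0.00958).

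Transcripts of many genes on routes known to lead to chemokine transcription were higher with TNF. Their levels do not measure the activity of a route, and a link to the chemokines was not tested. On the TNF to NF-kB route 11 of 15 measured genes rose and none fell, with a median of 1.11, and 13 were higher with the block. Nfkbie, Nfkbia and Tnfaip3, inhibitors that end the NF-kB response, rose 19.7-fold, 10.2-fold and 10.7-fold, each with a limma adjusted p of 2.03e-05. Relb, a subunit of the noncanonical NF-kB pathway, rose 4.14-fold. Nfkb1, Chuk and Ripk1 had no probe set with a single symbol and are left out of the count. Calls that depended on single arrays were those of Tnfrsf1b, lost without TNF 2 (adjusted p = 0.0542) or control 1 (0.0608), and Rela, lost without TNF 1 (0.0621), TNF 2 (0.0573) or control 2 (0.0542).

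On the interferon route 9 of 16 measured genes rose and none fell, with a median of 0.72, and 12 were higher with the block. Without both arrays of replicate 1 only 5 rose. Irf7 rose 25.4-fold, Irf1, which binds the promoters of Cxcr3 ligand genes, 8.55-fold (limma adjusted p = 2.03e-05), and Stat2 4.57-fold. Ifngr2, a subunit of the interferon gamma receptor, rose 2.96-fold (limma adjusted p = 3.34e-04). The interferon genes themselves did not pass, with Ifnb1 at -0.02 and Ifng at 0.07. The call of Jak2 (difference 0.61) was lost without any 1 of the 6 arrays (adjusted p from 0.0517 to 0.117).

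Of 7 genes that set the stability of chemokine mRNA 1 rose and none fell. Zc3h12a (regnase-1), a nuclease that degrades inflammatory transcripts, rose 1.87-fold to 8.12 ± 0.13 with TNF, against 7.22 ± 0.26 in controls (SD, n = 3 each, limma adjusted p = 0.0137). Its call was lost without control 1 (adjusted p = 0.0528). Zfp36 (tristetraprolin), which destabilises Cxcl1 mRNA, differed by 0.36 and did not pass (limma adjusted p = 0.286). With the block Zfp36l1 passed as higher (adjusted p = 0.00186) and Zfp36l2 as lower (0.0179).

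**Figure D5:**
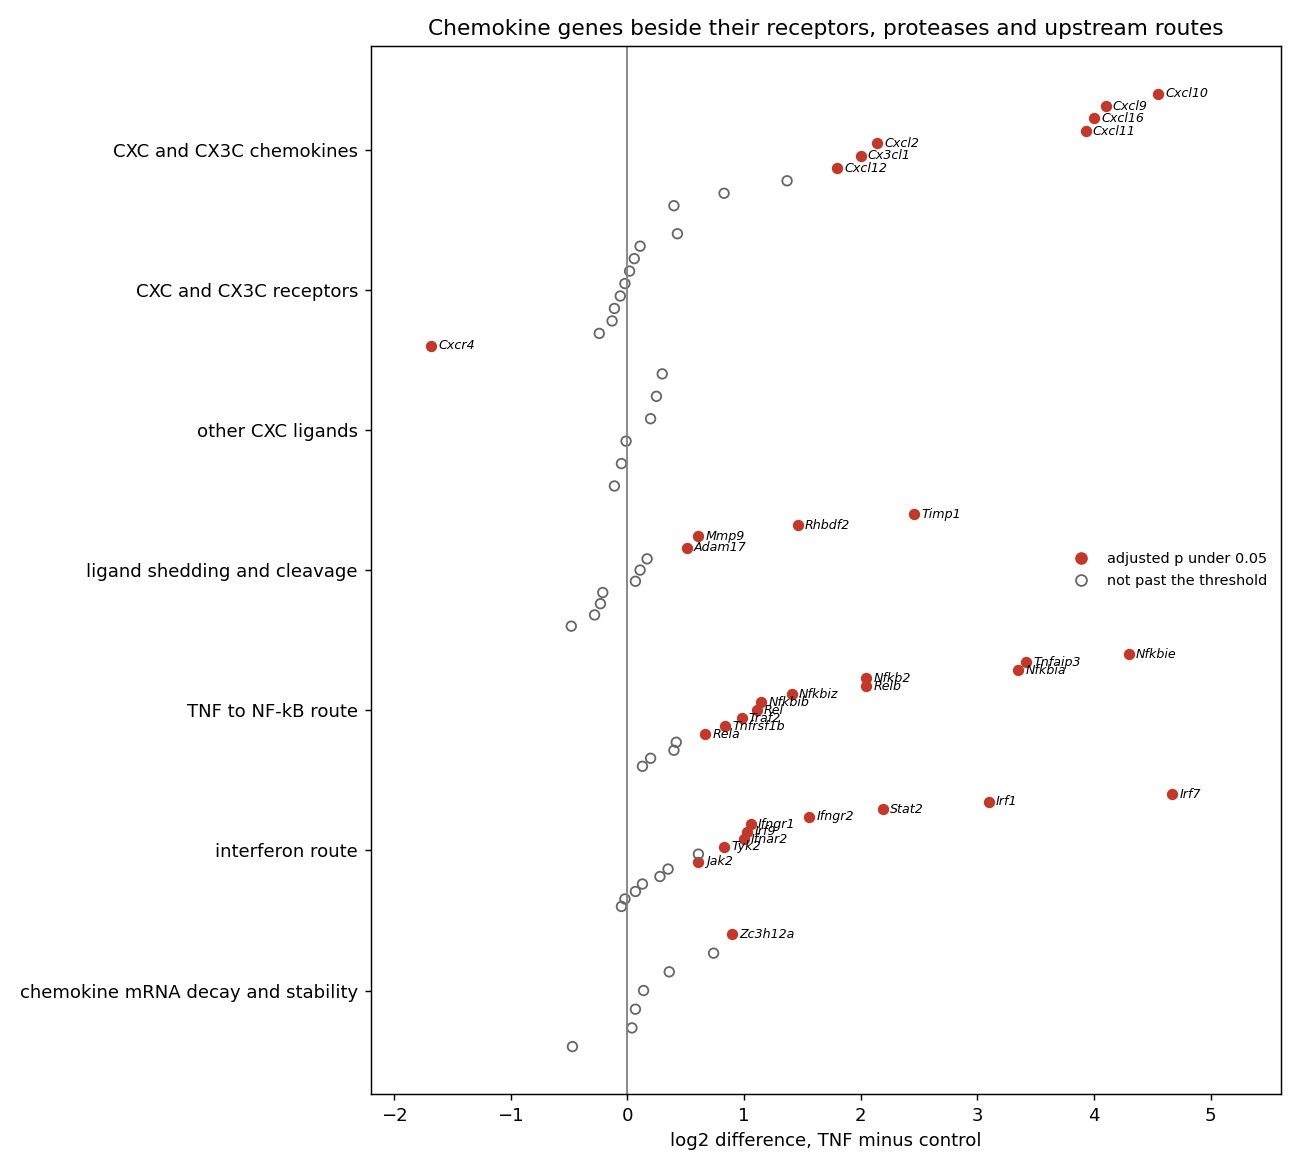
Log2 difference, TNF minus control, of each measured gene in 7 groups, with genes at an adjusted p under 0.05 filled and named. The chemokines reach 4.55 (Cxcl10), the receptors cluster around 0 apart from Cxcr4 at -1.68, and the NF-kB and interferon routes lie mostly right of 0.

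Of 29 measured genes next to the chemokines on the chromosome, picked by position once the chemokine values were known, 3 rose and none fell. That is 10.3% higher, against 3.87% of all genes, and with the block 6 were higher, against 9.73% of all genes. The 29 include Ppbp, Pf4, Cxcl3 and Cxcl15, which lie inside the Cxcl5 to Cxcl2 run and were already counted among the other CXC ligands. Art3, an ADP-ribosyltransferase gene between Cxcl9 and Cxcl10, differed by 0.78 (limma adjusted p = 0.0603), and passed with the block (0.00168) and without TNF 3 (0.0219). Sdad1 and Nup54, on either side of that run, differed by 0.61 and 0.38, did not pass, and were called higher with the block (adjusted p = 0.0029 and 0.019). The genes next to the Cxcl5 to Cxcl2 run, Rassf6 and Mthfd2l, differed by 0.05 and 0.02. Beside Cxcl16, Med11, a subunit of the Mediator complex, rose 1.58-fold (difference 0.66, limma adjusted p = 0.0134), with the call lost without TNF 2 (0.0582), control 2 (0.0518) or control 3 (0.0545). On the other side Zmynd15 rose 2.32-fold (limma adjusted p = 0.00518), and its call was lost without both arrays of replicate 2 (0.061) or of replicate 3 (0.058). The RefSeq table also gives that name as a synonym of Cxcl16, and a shared signal was not tested. Beside Cx3cl1 the CC chemokine gene Ccl17 rose 2.51-fold (limma adjusted p = 0.0148), with the call lost without control 1 (0.0662), while Ccl22 differed by -0.09.

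Likeness across arrays was measured as the Pearson correlation, over 6 arrays, with the mean of the 10 chemokine genes after each was centred on its own mean. These 6 points share the contrast of TNF and control, which sets most of the correlation. The 5 genes most alike were Irgm1, an immunity-related GTPase (r = 0.999), Lgals9, the lectin galectin-9 (0.998), Ctrl, a chymotrypsin-like protease (0.998), H2-Q5, an MHC class I entry listed in this strain as a transcribed pseudogene (0.998), and AA467197 (0.997). Lgals9 rose 20.8-fold to 11.67 ± 0.53 with TNF, against 7.29 ± 0.44 in controls (SD, n = 3 each, limma adjusted p = 1.85e-04), and Irgm1 rose 7.99-fold. H2-Q5 rose 11.1-fold and AA467197 4.60-fold. Ctrl rose only 1.48-fold and lost its call without TNF 2 (adjusted p = 0.085), control 1 (0.0723), control 2 (0.0744) or control 3 (0.056). Among the 10 chemokine genes, pairwise correlations over the same arrays ran from 0.60 for Cxcl5 with Cxcl13 to 0.99.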

How the data were processed

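Gene expression was measured on 6 arrays, 3 TNF and 3 control. The deposited log2 values of 35544 probe sets were used; per the submitters' processing notes the authors used RMA, a method that summarises probes after background correction and quantile normalization, and limma, and no version is given there. The log base was read from the values (2.04 to 14.37, array medians 7.14 to 7.18). Large folds are compressed by such summaries, and dim values may lie near background, for which no calls were used. The number of arrays limits the precision.

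Probe sets with exactly 1 symbol (21777) were kept, 21686 of them matched to RefSeq GRCm38.p6 by Entrez number, and the probe set of highest mean per gene left 19926 genes. Differences were tested over all genes with lmFit and eBayes (limma 3.58.1, R 4.3.3); Python 3.11.15 with pandas 2.3.3 and matplotlib 3.10.9 did the rest, and the fit was tested on simulated data. The members and the lists were chosen with earlier results of these data known. Named genes were the 10 chemokines, up to 4 called genes per list and direction with the smallest p, the receptors and sheddases of the chemokines, 5 genes by likeness, and neighbours added later. Others whose calls changed between fits (Tnfrsf1b, Rela, Jak2, Zfp36l1, Zfp36l2) were named after their values were seen. Protein sequences and the promoters of Cxcl5, Cxcl11 and Cxcl16 were not used here. Cell type lists covered astrocytes, microglia, T, NK and neutrophil cells, neurons, oligodendrocytes, endothelium, fibroblasts and mural cells, and ependyma.

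The titles number both groups 1 to 3. Samples of matching number deviated together (correlations of 0.55, 0.65 and 0.75 over genes), so the pairing rests on the values. Replicate 3 stood apart: its lower quartiles were 6.33 (TNF) and 6.27 (control), against 6.01 to 6.09 on the other arrays. Alternatives were other centring, normalization, filter, variance model, array weights, a fixed or random replicate block, other probe sets, thresholds, and left-out arrays or pairs.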

Additional observations from a re-analysis of the deposited data

How the results depend on the processing

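With the replicate block 1938 genes were higher and 2351 lower, and with a random replicate block 2231 and 2471, against 771 and 663 without one. Here shedding genes means the list of 11 proteases, inhibitors and iRhoms above. The random block gave 1 higher receptor, 1 higher other CXC ligand, 2 lower shedding genes, and 3 higher and 1 lower decay gene. The fixed replicate block gave 1 higher receptor, 1 lower shedding gene, and 2 higher and 1 lower decay gene. All probe sets gave 436 lower genes, 0 lower receptors and 2 higher shedding genes. An adjusted p under 0.01 left 386 higher and 195 lower genes, 0 lower receptors, 2 higher shedding genes and 0 decay genes. A log2 difference of at least 1 left 365 and 200 genes, 2 higher shedding genes and 0 decay genes. The 2 shedding genes left at either threshold were Rhbdf2 and Timp1, neither of them a protease. Quantile normalization, array weights, trend and robust variance, and leaving out genes below the median signal each gave 1 lower shedding gene. The last pair also gave 1 lower decay gene. Leaving out 1 array gave 465 to 669 higher and 315 to 455 lower genes, and leaving out both arrays of replicate 1, 2 or 3 gave 284, 273 or 401 higher and 106, 134 or 231 lower. Over both kinds there were 6 to 9 higher and 0 lower chemokines, 0 to 1 lower receptors and 2 to 3 higher shedding genes. There were also 8 to 11 higher NF-kB route genes, 5 to 9 higher interferon route genes, and 0 to 1 decay genes in each direction. The causes were not tested, beyond the loss of arrays and genes that some settings entail.

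Of 127 genes under up to 18 alternatives each (the named genes, the rest of the pathway lists and neighbours, and the cell type markers called with or without the block), 0 calls changed direction in 2243 values; 94 lost and 109 gained the call. Cxcl2, Cxcl10, Cxcl11, Cxcl12, Cxcl16 and Cx3cl1 kept their calls in each alternative in which they were tested, Cxcl9 in 17 of 18. Cxcl10 only just kept its call without both arrays of replicate 1 (limma adjusted p = 0.0499). Cxcl1 passed in 5 of 18, Cxcl13 in 8 of 17 and Cxcl5 in 2 of 17. Leaving out genes below the median signal removed Cxcl2, Cxcl5, Cxcl12 and Cxcl13, which limits what can be said of dim genes.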

Other observations

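The counts of markers called for other cell types that the cultures could hold stand beside 3.87% higher and 3.33% lower over all genes, or 9.73% and 11.8% with the replicate block. Of 10 fibroblast and mural markers 1 fell (Acta2, smooth muscle actin, difference -0.96, limma adjusted p = 0.0174), and of 9 endothelial markers 1 fell (Kdr, a VEGF receptor, at -0.91, adjusted p = 0.0105). Of 11 neuron markers 1 fell (Map2, a microtubule protein, at -1.22, adjusted p = 0.00349), and 9 oligodendrocyte and 6 ependymal markers gave 0 calls with limma (0 and 2 at an unadjusted p under 0.05, and 0 and 3 with the block, all lower). With the block 3 fibroblast and mural markers were lower (Acta2, Tagln and Pdgfrb), 1 endothelial marker was lower, and of the neuron markers 1 was higher (Gad1) and 2 lower (Map2 and Stmn2). The call of Acta2 was lost without control 1 (adjusted p = 0.0568), control 2 (0.0632) or control 3 (0.0566). These markers were named after their values were seen. Of 12 astrocyte markers 4 fell and none rose without the block: the connexin gene Gja1, the aldolase gene Aldoc, the glutamine synthetase gene Glul and the growth factor receptor gene Fgfr3, between -1.01 and -0.88. The call of Gja1 was lost without TNF 2 (adjusted p = 0.0572), control 1 (0.056) or control 3 (0.0538). With the block 7 were lower, adding Gfap, S100b and Sox9, and 2 were higher, the glutamate transporter gene Slc1a2 (difference 0.60, adjusted p = 0.0123) and the water channel gene Aqp4 (0.60, adjusted p = 0.0069), both without overlap of the groups.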
